A study of Mus musculus with 2 samples.

Results

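Metallothioneins were examined in the lenses of newborn mice with and without Msx2. The family members Mt1, Mt2, Mt3 and Mt4 were taken by the gene name printed in the scanner files, which gave 4 of 27343 gene names, with 6 of the 41174 probes, on 15 of 43379 non-control spots per array. The family was chosen by the measured difference between the arrays, because Mt1 and Mt2 stood among the most different genes in an earlier look at the same data, so the differences of the members are a description and carry no test. RNA of 1 conditional knockout (CKO) sample and of 1 wild-type sample, both from mice of postnatal day 1, was hybridised to 1 one-colour oligonucleotide array each. In the CKO mice Msx2, a homeobox transcription factor, was deleted by Le-Cre, a Cre transgene that acts in the lens and in other derivatives of the ocular surface ectoderm. Neither the Le-Cre status of the wild-type mice nor the number of animals behind each RNA is stated in the labels. With 1 array per genotype no value below has a replicate check and no p-value is given. Where several spots carry 1 probe, their SD measures the spread within an array and not between animals. In a whole-lens RNA sample, more cells of a type and more RNA per cell cannot be told apart.

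Metallothioneins are small proteins very rich in cysteine, whose sulphur atoms hold zinc, copper and cadmium ions. Mt1 and Mt2 are made in most tissues and are among the most strongly inducible mammalian genes. Their transcription is switched on by zinc and cadmium through the zinc-sensing factor MTF1, which binds metal response elements in their promoters, and it also responds to glucocorticoids, inflammatory cytokines and oxidative stress. Mt3 is best known from brain, where it was found as a growth inhibitory factor for neurons, and Mt4 from stratified squamous epithelium.

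The Mt1 and Mt4 probes are printed here because their letters show how rich in cysteine codons each one is. Capitals mark the codons TGC and TGT, both of which encode cysteine, in the stop-free reading frame that holds the most of them. The first Mt1 probe was designed on the RefSeq mRNA and the second on a full-length cDNA clone from dendritic cells, and the latter has no capitals because no frame was taken as coding.
Mt1 mRNA probe A_51_P294979: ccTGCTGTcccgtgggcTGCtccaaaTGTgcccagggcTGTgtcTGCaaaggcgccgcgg
Mt1 clone probe A_52_P423810: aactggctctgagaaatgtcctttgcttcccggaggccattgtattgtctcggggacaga
Mt4 probe A_51_P424275: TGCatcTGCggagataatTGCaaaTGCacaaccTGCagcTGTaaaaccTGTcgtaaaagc
Mt4 probe A_51_P424272: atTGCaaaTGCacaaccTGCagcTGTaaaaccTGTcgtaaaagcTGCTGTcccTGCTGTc

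The Mt1 mRNA probe held 6 cysteine codons among 19, and the Mt4 probes held 7 of 20 and 9 of 19. The Mt1 clone probe had only 2 cysteine codons in its best open frame. The clone probe lay upstream of the mRNA probe on the genome, at chr8:96703844-96703903 against chr8:96704011-96704070 (mm9, plus strand, per the files). Whether the clone probe lies in an exon or an intron of Mt1 was not settled here. The Mt2 probe lay at chr8:96697371-96697430, and its 60 letters had no open reading frame. The Mt3 probe lay at chr8:96677927-96677986, and in its only open frame 1 codon encoded cysteine. Each Mt4 probe of 60 bases covered 539 bases of genome, chr8:96662139-96662677 and chr8:96662155-96662693, so each joined sequence on both sides of a 479-base gap, as a spliced transcript does. The 4 genes thus formed a cluster of 41.9 kb in the order Mt4, Mt3, Mt2, Mt1, all read on the plus strand. The longest run of bases that the Mt1 mRNA probe and the Mt2 probe shared was 5 bases. The Mt1 mRNA probe and the second Mt4 probe shared 10 (ctgctgtccc). The Mt2 coding sequence was not used here, so whether Mt2 transcripts also bind the Mt1 mRNA probe was not tested.

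The targeted gene served as a check of the labels. The Msx2 probe read 371 ± 15.9 intensity units over 10 spots in wild type (SD), all of them well above background, and 4.62 ± 1.77 over 10 spots in CKO, of which 0 were well above background. On each array 55.1% (CKO) and 54.2% (wild type) of the probes were well above background, a mark that the scanner software sets for a spot, and 0 non-control spots were saturated. The lowest probe signal with this mark was 16.5 intensity units in the CKO array and 16.6 in wild type. All 8 lens fibre markers examined, among them the crystallin gene Cryaa and the fibre membrane protein gene Mip, were well above background on both arrays, with log2 differences from -0.68 to -0.07. Their median was -0.33, and 0.01 with intensity-dependent centring.

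Mt1 was far brighter in the CKO lens by its mRNA probe. The 10 CKO spots of that probe gave a processed signal of 1542 ± 55.4 intensity units (SD over spots), from a lowest value of 1444 through a median of 1553 to a highest of 1621. In wild type 8 spots gave 108 ± 5.34 (lowest 99.3, median 110, highest 115), and 2 more, at 142 and 90.4, were left out because the software marked them as outliers among the spots of this probe. The 2 sets of spots did not overlap, and the lowest CKO spot was 10.2 times the highest wild-type spot even with the marked spots counted. After each array was scaled to its 75th percentile, Mt1 was 14.2-fold higher in CKO, a log2 difference of 3.82. At the 8 array positions with unmarked spots on both arrays the difference ranged from 3.70 to 3.95 (13.0-fold to 15.5-fold) with an SD of 0.09.

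Mt2 had almost the same difference from a single spot. The CKO spot gave 1413 intensity units and the wild-type spot 98.2, with errors of 141 and 10.4 by the error model of the scanner software. That is 14.3-fold higher in CKO, a log2 difference of 3.84. Among 14221 genes measured, that is, unsaturated on both arrays and well above background on each, Mt2 stood at place 9 and Mt1 at place 10 from the largest excess in CKO. A probe on the opposite strand, of which 38 bases are the reverse complement of the Mt2 probe, gave 4.11 units in CKO and 4.29 in wild type and was not well above background on either array. Whether that probe can give signal for any transcript was not tested, so nothing is read from it about the other strand.

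**Figure D1:**
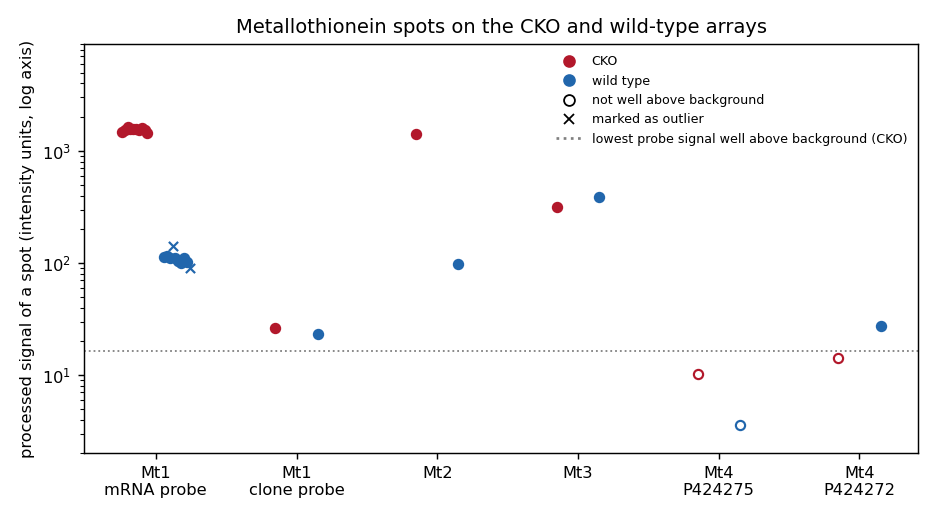
Processed signal of every metallothionein spot (intensity units, log axis) for the 6 probes, with CKO spots in red and wild-type spots in blue. The Mt1 mRNA probe and Mt2 separate the arrays by 14.2-fold and 14.3-fold, whereas the Mt1 clone probe and Mt3 have both arrays close together and the Mt4 spots lie around the lowest signal that counts as well above background (16.5 units in CKO, dotted line). Levels of different probes are not comparable with each other.

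The Mt1 clone probe did not show this difference. The CKO spot gave 26.3 intensity units and the wild-type spot 23.1, with model errors of 4.52 and 4.39. Both were marked well above background, not far from the lowest signals so marked (16.5 and 16.6). The log2 difference was 0.18, smaller than the SD of 0.23 that the difference of a single repeated spot had over 126 probes printed more than once. For comparison, probes of the same gene scattered with an SD of 0.36 in this difference over 4847 genes, and the Mt1 probes lay 3.82 and 0.18 from equality. The array therefore gives 2 values under the name Mt1 that cannot be averaged, 1 from cysteine-rich sequence and 1 from a stretch upstream of it. Whether the clone probe reads the spliced Mt1 transcript was not settled.

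Mt3, the brain member of the family, was measured on both arrays and differed little. The CKO spot gave 318 intensity units and the wild-type spot 386, with model errors of 32.0 and 38.8. Mt3 was 1.22-fold lower in CKO, a log2 difference of -0.29, which lay between the SD for a repeated spot and the SD between probes of a gene. The median of all measured genes was itself -0.12. Of the measured genes, 33.9% had a lower difference than Mt3.

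Mt4, the epithelial member, was at the limit of detection, and its probes contradicted each other. Probe A_51_P424275 gave 10.2 units in CKO and 3.59 in wild type, neither well above background. Probe A_51_P424272, which shares 44 of its 60 bases with the first, gave 14.1 units in CKO, not well above background, and 27.5 in wild type, where it carried the mark. By that probe Mt4 was at least 1.68-fold lower in CKO, counted against the lowest signal well above background on that array. The measured differences of the pair were 1.49 and -0.97 on the log2 scale, opposite in sign although the probes overlap, and with normexp background correction they shrank to 0.13 and -0.18. No direction for Mt4 can be read from these spots.

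Altogether 4 of the 6 probes, of 3 genes, were measured on both arrays. Of these 4 probes, 2 passed 2-fold upward in CKO and 0 downward. Among the 21010 measured probes 3.64% were higher by this much and 3.57% lower, and since the difference itself chose the family nothing is read from this contrast. The differences of Mt1 and Mt2 varied little across scalings, from 3.70 to 3.93 and from 3.71 to 3.94, and were 3.17 and 3.18 with normexp, which adds an offset to each spot.

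**Figure D2:**
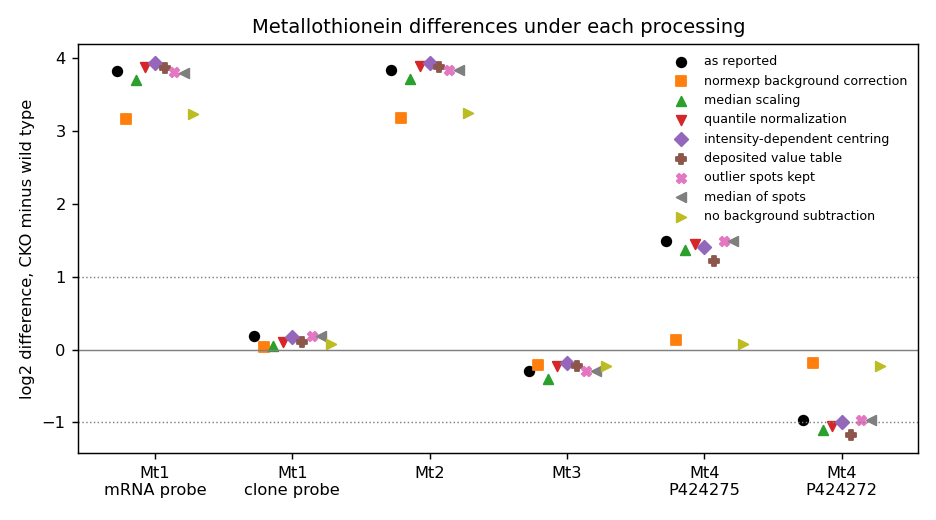
Log2 difference (CKO minus wild type) of each metallothionein probe as reported (black circle) and under 8 other ways of processing, with dotted lines at a 2-fold difference. The Mt1 mRNA probe and Mt2 stay above 3 in each, the Mt1 clone probe and Mt3 stay within 2-fold, and the Mt4 pair moves to 0.13 and -0.18 with normexp.

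By a fixed rule, genes were also ordered by the Euclidean distance of their scaled log2 levels on the 2 arrays from those of Mt2. This distance sets the brightness of different probes side by side, which is not comparable between genes, and it starts from a gene chosen for its difference, so the order is a description only and nothing is read from it. The nearest was the interleukin gene Il4 (distance 0.18, 17.1-fold higher in CKO), followed by Mt1 (0.19, 14.2-fold), a probe without a settled gene name (0.25, 11.4-fold), the platelet factor and macrophage chemokine gene Pf4 (0.61, 8.11-fold) and Cebpd, a transcription factor gene induced by cytokines and glucocorticoids (0.92, 5.81-fold).

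Of the regulators of the metallothioneins, all 8 listed genes were measured, and 0 passed 2-fold in either direction by the brightest probe. Among all measured genes 4.11% were higher by this much and 3.98% lower (584 and 566 genes, or 470 and 844 when arrays were scaled to their medians), so a count of 0 among 8 is near this background and is no result about the regulators. Mtf1, the zinc-sensing activator, gave 414 units in CKO and 480 in wild type, a log2 difference of -0.22, while its other measured probe gave 0.27, so the probes differed in sign. The genes of the upstream stimulatory factors, which bind the Mt1 promoter, were higher, though within 2-fold: Usf1 at 68.6 units in CKO and 38.5 in wild type (1.77-fold), and Usf2 at 2424 and 1357 (1.77-fold), although another measured probe of Usf2 differed by 0.04. Hif1a, the hypoxia-regulated activator, was 1.61-fold lower and Sp1 1.38-fold higher. The measured probes of the glucocorticoid receptor gene Nr3c1 ran from -0.39 to 0.75 and those of Nfe2l2, which encodes NRF2, from -0.42 to 0.77 on the log2 scale. The median log2 difference of the list was 0.13, beside -0.12 for all measured genes.

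Other targets of MTF1 had differences between -0.94 and 0.45 on the log2 scale. Slc30a1, the zinc exporter of the plasma membrane and a standard target of MTF1, gave 247 units in CKO and 180 in wild type, 1.36-fold higher, with its 2 measured probes at 0.26 and 0.45 on the log2 scale. Of the 7 measured MTF1 targets outside the family 0 passed 2-fold in either direction, near the background of 4.11% higher and 3.98% lower, and the median was -0.15. The list was not split by the direction in which MTF1 acts on each gene, so no direction is read from its median. The stress-response gene Ndrg1 was 1.92-fold lower, the LIM protein gene Csrp1 1.81-fold lower and Gclc, the catalytic subunit for glutathione synthesis, 1.55-fold lower.

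Zinc transporters measured on both arrays were within 2-fold, and Slc39a5, seen in wild type only, was not. Among all measured genes 4.11% were at least 2-fold higher and 3.98% lower. Finding none past 2-fold in lists this small is near that background and is no result about zinc transporters. Of the SLC30 family, which moves zinc out of the cytosol, 7 of 10 genes were measured and 3 were not well above background on either array. Their median was -0.06, and the largest differences were those of Slc30a4 (1.39-fold lower), Slc30a1 (1.36-fold higher), Slc30a10 (1.19-fold higher) and Slc30a5 (1.18-fold lower). Of the SLC39 family, which moves zinc into the cytosol, 12 of 14 genes were measured, 0 were at least 2-fold different, and the median was 0.14. Slc39a14, a zinc and iron importer that inflammation induces in liver, was 1.72-fold higher (99.9 units in CKO, 57.8 in wild type), Slc39a8 1.65-fold higher, Slc39a9 1.42-fold higher (its 2 measured probes gave 0.51 and -0.47 on the log2 scale) and Slc39a2 1.34-fold lower. Slc39a5 gave 3.36 units in CKO, not well above background, and 77.6 in wild type, at least 4.74-fold lower in CKO.

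Of the copper handling genes 11 of 15 were measured, 0 differed by 2-fold or more and the median was -0.20. A count of 0 among 11 is near the background of 4.11% higher and 3.98% lower and is no result about copper handling. The copper chaperone gene Atox1 was 1.59-fold higher (10130 units in CKO, 6316 in wild type). Atp7a, a copper-exporting ATPase, was 1.52-fold lower, the ferroxidase gene Cp 1.36-fold lower (its other measured probe gave a log2 difference of -1.13) and the copper chaperone gene Sco1 1.34-fold lower (its other probe gave 0.22). With median scaling Ndrg1 of the MTF1 targets passed 2-fold, at -1.06 (log2). With no filter on detection 1 zinc exporter and 1 zinc importer were lower by 2-fold or more and 1 copper gene higher. The copper median turned to 0.01 with quantile normalization or the deposited table.

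Lists of genes that respond to other known inducers of metallothioneins were examined in the same way. The lists were chosen with earlier results of these data known. Their shares are therefore a description, and the part of these inducers in the difference of Mt1 and Mt2 was not tested. Of 10 measured glucocorticoid-induced genes 3 were at least 2-fold higher (30%, beside 4.11% of all measured genes) and 0 lower, and the median was 0.17. Cebpd gave 910 units in CKO and 156 in wild type (5.81-fold higher), the kinase gene Sgk1 224 and 54.6 (4.08-fold) and the mTOR inhibitor gene Ddit4 5970 and 1602 (3.70-fold). Nfkbia, an inhibitor of NF-kappa-B, was 1.66-fold higher. The other measured genes of the list are named here after their values were seen. Fkbp5, Tsc22d3, Per1, Dusp1, Klf9 and Errfi1 had log2 differences of -0.19, 0.09, 0.21, 0.13, -0.54 and -0.02.

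The acute phase and STAT3 list had the highest median of the 9 lists, 1.07, over 7 measured genes. In it 4 genes (57.1%, beside 4.11% of all measured genes) passed 2-fold upward and 0 downward. The complement gene C3 gave 746 units in CKO and 66.6 in wild type (11.1-fold higher), and the immediate early gene Junb 1780 and 400 (4.42-fold). Cebpd, which is also in the glucocorticoid list, was 5.81-fold higher, and Cebpb, a related factor, 2.10-fold. The other measured genes, Socs3, Timp1 and Osmr, are named after their values were seen. Their log2 differences were -0.40, -0.08 and 0.76, and the other measured probes of Socs3 and Timp1 gave -0.19 and 0.13. Hp, the gene of the haemoglobin scavenger haptoglobin, was well above background in CKO only, at least 1.63-fold higher. With normexp the median of this list was 0.49 and the count 3, and with median scaling or no background subtraction the count was also 3. A further 8 genes of the list, Il6 and Il1b among them, were not well above background on either array.

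Targets of the oxidative stress factor NRF2 and genes induced by hypoxia held 0 of 9 and 0 of 9 measured genes past 2-fold in either direction. Among all measured genes 4.11% were higher by this much and 3.98% lower, so these counts are near background and are no result. The medians of these lists were 0.25 and 0.20. Of the NRF2 targets, Osgin1 was 1.91-fold higher, Srxn1 1.72-fold higher, Hmox1, which degrades heme, 1.67-fold lower by its brightest probe (its other measured probe gave a log2 difference of 1.09, the opposite sign) and Gclc 1.55-fold lower, while the quinone reductase gene Nqo1 was well above background in CKO only, at least 3.58-fold higher. In the hypoxia list Egln3 was 1.92-fold and Ankrd37 1.81-fold higher, whereas Ndrg1 and Bnip3 were 1.92-fold and 1.63-fold lower.

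**Figure D3:**
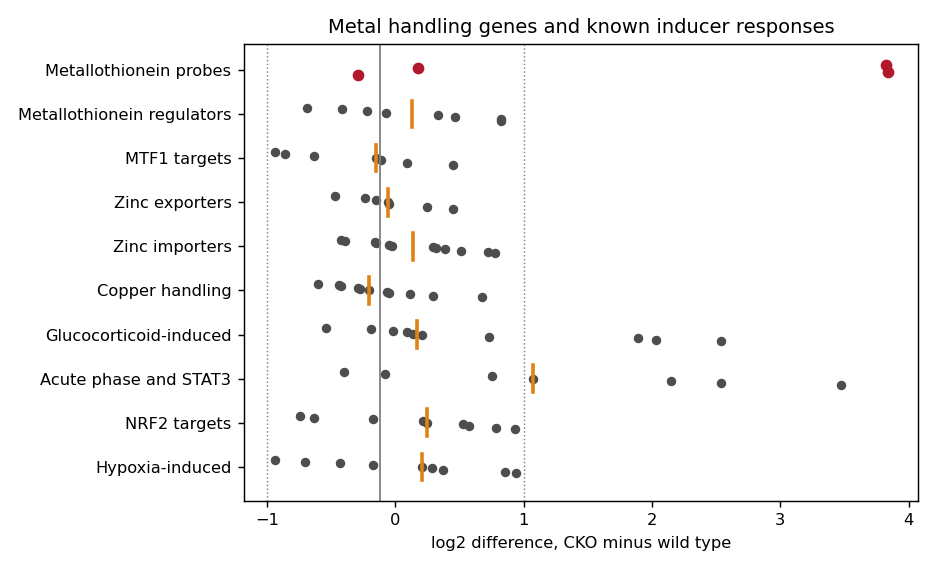
Log2 difference (CKO minus wild type) of the 4 measured metallothionein probes (red) and of each measured gene of the 9 lists (grey), with the list median as an orange bar, the median of all measured genes (-0.12) as a solid line and 2-fold differences as dotted lines. Past 2-fold lie 3 genes of the glucocorticoid list and 4 of the acute phase list, none of the other 7 lists, and the Mt1 mRNA probe and Mt2 at 3.82 and 3.84.

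Genes near the cluster were also examined, and they were chosen after the data were seen. Within 500 kb on either side of the cluster, 20 other gene names had a probe, provisional names included, and 12 were measured. Their median log2 difference was 0.05, 1 passed 2-fold upward and 1 downward, against 4.11% and 3.98% of all genes measured. Counts of 1 among 12 are near this background and are no result about the neighbours. Mt1 and Mt2 were chosen for their difference, so nothing is read from a contrast of the neighbours with them. The nearest measured neighbours were Bbs2, a gene of the primary cilium, at -61.2 kb, on the Mt4 side of the cluster (log2 difference 0.07), and the nuclear pore gene Nup93, 130 kb away on the Mt1 side (0.10). Herpud1, an endoplasmic reticulum stress gene 215 kb away, was 2.23-fold higher. The lower one was the clone-named gene 9330175E14Rik, whose 3 measured probes gave -1.02, -0.05 and -0.01. Among neighbours not measured on both arrays, Pllp and Gnao1 had a probe well above background in CKO only. That of Pllp, 499 kb away, gave 41.5 units in CKO and 8.33 in wild type, and that of Gnao1 18.5 and 14.2. Other probes of Pllp, on the opposite strand, were not well above background on either array.

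**Figure D4:**
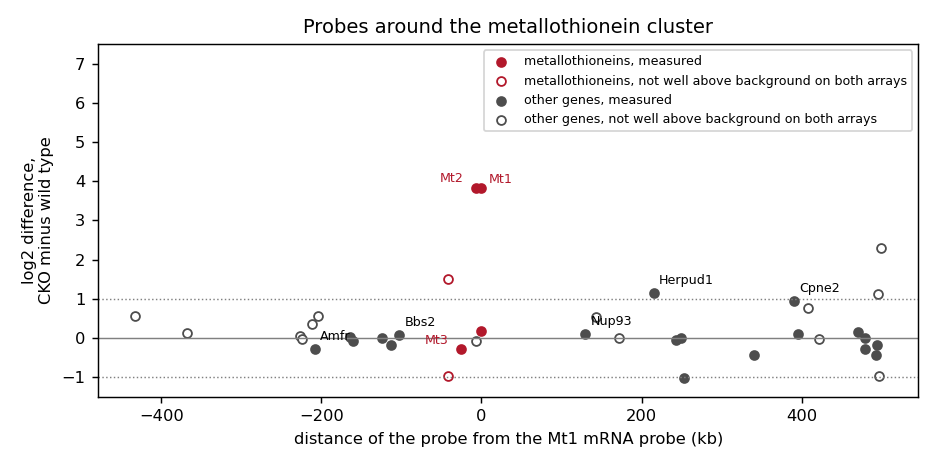
Log2 difference (CKO minus wild type) of every probe within 500 kb of the metallothionein cluster against its distance from the Mt1 mRNA probe in kb, with metallothioneins in red, other genes in grey, open circles for probes not well above background on both arrays and dotted lines at 2-fold. Mt1 and Mt2 stand at 3.82 and 3.84, and the measured neighbour with the largest difference upward is Herpud1 at 1.16.

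Windows before the annotated starts of Mt1 and Mt2 are shown because these genes differed together. They are the 250 bases before the RefSeq gene start (GRCm38.p6), and capitals mark matches on either strand to the core of the metal response element, searched as TGCACNC and TGCGCNC, 2 patterns that cannot match at the same bases of a strand. All 4 members were found in the RefSeq promoter table. The word promoter in the labels below means this window only, and whether it holds the promoter in use was not examined.
Mt2 promoter, chr8:94172368-94172617, plus strand: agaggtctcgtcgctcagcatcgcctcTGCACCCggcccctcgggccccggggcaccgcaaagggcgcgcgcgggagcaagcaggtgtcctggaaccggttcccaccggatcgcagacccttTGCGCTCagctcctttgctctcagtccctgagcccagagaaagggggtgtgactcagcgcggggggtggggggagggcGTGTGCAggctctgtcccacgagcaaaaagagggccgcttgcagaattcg
Mt1 promoter, chr8:94178839-94179088, plus strand: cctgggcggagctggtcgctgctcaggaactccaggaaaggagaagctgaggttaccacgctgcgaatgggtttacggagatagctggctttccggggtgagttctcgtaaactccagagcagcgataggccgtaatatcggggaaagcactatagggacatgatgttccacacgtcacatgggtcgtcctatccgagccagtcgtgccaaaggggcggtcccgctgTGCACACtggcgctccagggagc

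The Mt2 window held 3 matches, at bases -223 to -217, -128 to -122 and, on the minus strand, -50 to -44 from the start. The Mt1 window held 1, at -23 to -17, that of Mt4 also 1, and that of Mt3 had 0. Of 32851 promoter windows of this length, 21.4% held at least 1 match (10.4% TGCACNC and 12.5% TGCGCNC) and 1.26% held 3 or more. The antioxidant core TGACNNNGC matched 1 time in the Mt2 window and in 10.2% of all windows, and the E-box CACGTG matched in none of the 4 windows and in 6.02% of all. These are letters in a fixed window and not mapped sites, and elements outside the window were not searched. Bases after the RefSeq start were also not searched, and where transcription starts in these lenses was not examined. The matches are therefore no count of the elements in the promoter of Mt1 or of the other members.

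Markers of several other cell types also differed between the arrays. Among all measured genes 4.11% were at least 2-fold higher and 3.98% lower. Over all genes, 1070 were well above background in CKO only and 861 in wild type only. Of 14 macrophage markers, 6 were measured and 5 of them were at least 2-fold higher in CKO, the sixth, C1qb, had a log2 difference of -0.02, 7 more were well above background in CKO only and 1 in wild type only, and the summed signal of the list was 7802 units in CKO and 1165 in wild type. Of 8 endothelial markers, 6 of 7 measured were at least 2-fold higher, 1 more was seen in CKO only, and the sums were 5169 and 1642. Of 6 stromal markers, 2 of 3 measured were at least 2-fold higher and 3 were seen in CKO only, with sums of 9190 and 665 units. The remaining measured stromal gene, Pdgfra, gave 424.5 units in CKO and 446.7 in wild type, a log2 difference of -0.08. Pigment cell markers gave 432 and 84.4 units, with 2 of 2 measured genes at least 2-fold higher, 2 seen in CKO only and Tyr not well above background on either array. Astrocyte markers, of interest because glia are rich in metallothioneins, summed to 463 and 445 units, with Aqp4 2.18-fold higher, Gfap 3.21-fold lower and Slc1a3 not well above background on either array. Neuronal markers summed to 471 and 451 units, with 0 of 3 measured past 2-fold and Snap25 not well above background on either array. Surface epithelium markers summed to 780 and 981 units, with Krt1 9.36-fold lower, Krt10 1.03-fold lower, Krt5 and Krt12 not well above background on either array and Krt14 in wild type only. With normexp the higher count fell from 6 to 3 of 7 for endothelium (median 0.95 in place of 1.67), from 2 to 1 for pigment cells and from 1 to 0 for astrocytes, and without background subtraction it was 4, 1 and 0. The higher counts of the macrophage and stromal lists were 5 and 2 under both. The part of these cells in the difference of Mt1 and Mt2 was not tested.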

How the data were processed

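Both arrays were Agilent one-colour arrays of design 014868 per the file headers, extracted with Feature Extraction 10.7.3.1 (the submitters' processing notes name version 10.7), with probe positions in mm9. The authors deposited the spot intensity on a linear scale, corrected for background and spatial trend within the array by that software per the file headers and not normalized between arrays, and the 0 or 1 marks of each spot. They also deposited a table of log2 values (median 4.86 on both arrays, r = 0.9996 and 0.9998 with the log2 scanner intensity), of unstated scaling, which served as an alternative.

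Here each log2 intensity was taken relative to its array's 75th percentile over non-control spots (203 and 201 units). Outlier spots (127 in CKO, 168 in wild type) were left out and spots of a probe averaged. The well-above-background mark was required on more than 50% of a probe's spots. A gene took its brightest measured probe, and 2-fold was the threshold. An at-least fold divides the bright signal by the dim array's lowest marked probe signal, or by the dim probe's own signal if that is higher. Symbols were updated with the RefSeq table of GRCm38.p6 (27668 probes by accession, 5589 by symbol, 471 by older symbol, 7446 kept).

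Members and lists were chosen with earlier results of these data known. Named are all members, Mtf1, Slc30a1, per list the 4 measured genes with the largest difference and up to 2 seen on 1 array, and the 5 genes nearest to Mt2. The neighbours, the promoter motifs and the opposite-strand probe were chosen after seeing the data. The scripts were tested on simulated data. Tools were Python 3.11.15, numpy 2.4.6, pandas 2.3.3, statsmodels 0.14.6, matplotlib 3.10.9, R 4.3.3 and limma 3.58.1. The number of arrays limits the precision.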

Additional observations from a re-analysis of the deposited data

How the results depend on the processing

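No paired analysis was possible because each genotype has 1 array, and for the same reason no array could be left out. Values counted as moved when they shifted by more than 0.23 (log2), the SD of a repeated spot. The count of 2 metallothionein probes at least 2-fold higher was the same under each of 10 alternatives. Normexp gave differences of 3.17 for the Mt1 mRNA probe, 3.18 for Mt2, -0.18 and 0.13 for the Mt4 probes and medians of 0.49 for the acute phase list, with 233 genes higher and 218 lower. No background subtraction gave 3.24, 3.25, -0.22, 0.07 and 0.52, with 249 and 237 genes. The deposited table gave 1.22 for Mt4 probe A_51_P424275, and intensity-dependent centring a median of 0.44 for the hypoxia list. With no filter on detection 2026 genes were higher and 1753 lower, with a 1.5-fold threshold 1331 and 2090, and with a 4-fold threshold 116 and 37. The Mt1 clone probe (0.04 to 0.18), Mt3 (-0.41 to -0.19) and the medians of the other 7 lists stayed within that SD. Both normexp and uncorrected signals add a constant that pulls dim probes towards 0. Median scaling moved the median of all genes from -0.12 to -0.24 and intensity-dependent centring to -0.02. Median scaling gave 470 genes higher and 844 lower, and put 1 gene, Ndrg1, past 2-fold lower in the MTF1 and hypoxia lists. When a gene's probes were averaged, Mtf1 was 0.02 and Hmox1 0.17, of opposite sign to their brightest probes. Mt4 and the Mt1 clone probe are limited by signal near background.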

Other observations

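A probe described as metallothionein 1K, outside the 4 gene names and without a place on the genome in the files, gave 11.2 units in CKO and 8.47 in wild type and was not well above background on either array. It shares a run of 14 bases (tgtacaaccctgac) with the Mt2 probe and 27 of 60 bases in the best ungapped alignment. The 3 probes of Tesmin, which the files describe as metallothionein-like, were also not well above background on either array, at 3.54 to 15.1 units in CKO and 4.62 to 16.7 in wild type.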
